A study of Mus musculus with 3 samples.

Results

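The miR-183 cluster consists of 3 microRNA hairpins, Mir183, Mir96 and Mir182, which lie close together on mouse chromosome 6. The members were taken by their GENCODE M21 symbols, 3 of the 2202 annotated microRNA hairpins, of which 978 had at least 1 read. Small RNAs came from fully grown oocytes, which have ended their growth in the follicle but not yet resumed meiosis, of mice given 5 IU of PMSG, a hormone with FSH-like action, 48 hours before they were killed. Strain and age are not given in the sources used here, and all 3 libraries share cell type and treatment. Gel windows of 19-24, 24-30 and 19-30 nt gave 1 library each, called the short, the long and the wide library here. Without replicates, nothing below tests a difference between conditions of the cells. Bounds in brackets are 95% bounds that cover counting error only, and reads made by PCR are not independent molecules. The short and long libraries were read to 26 nt and the wide library to 36 nt, with another machine in its read names, so that window, preparation and run cannot be told apart.

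A microRNA is cut from a long primary transcript as a hairpin by the nuclear enzyme Drosha. Dicer then cuts the hairpin to a duplex of a 5p and a 3p arm, and 1 arm is kept in an Argonaute protein, where its seed (bases 2 to 8) pairs with target mRNAs. The 3 members are known to come from 1 primary transcript. They are best known from sensory organs such as the retina and the hair cells of the inner ear, where mutations in the miR-96 seed cause hearing loss. In mouse oocytes microRNAs are known to be present but to repress their targets weakly.

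The 3 hairpins lie on the minus strand of chromosome 6 (GRCm38) in the order Mir183, Mir96, Mir182 along the transcript, with 116 bases between Mir183 and Mir96 and 3453 between Mir96 and Mir182. Mir183 (ENSMUSG00000065619.2) lies at chr6:30169668-30169737, Mir96 (ENSMUSG00000065586.1) at chr6:30169446-30169551 and Mir182 (ENSMUSG00000076361.1) at chr6:30165918-30165992. Each is annotated as a microRNA gene of a single exon between the coding genes Nrf1 and Ube2h, and no annotated host gene covers them. The 3 hairpins are shown because the 5p and 3p arms, in capitals, decide where reads can fall (RefSeq, GRCm38.p6, identical to GENCODE M21):
Mir183: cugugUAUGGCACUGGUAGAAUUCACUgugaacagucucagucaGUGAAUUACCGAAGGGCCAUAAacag
Mir96: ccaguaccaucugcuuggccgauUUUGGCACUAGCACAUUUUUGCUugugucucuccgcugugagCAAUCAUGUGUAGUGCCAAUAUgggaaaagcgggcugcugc
Mir182: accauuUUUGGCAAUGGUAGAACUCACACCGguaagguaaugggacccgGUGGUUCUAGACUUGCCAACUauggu

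The 5p products carry closely related seeds, in capitals here, and differ in length. The 5p product of miR-1271 is included because it has the same seed as miR-96:
miR-183-5p: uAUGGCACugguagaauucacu
miR-96-5p: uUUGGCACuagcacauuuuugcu
miR-182-5p: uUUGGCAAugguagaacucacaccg
miR-1271-5p: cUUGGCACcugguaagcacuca
The RefSeq lengths are 22 nt for miR-183-5p, 23 nt for miR-96-5p and 25 nt for miR-182-5p. Counted from the 5′ end, miR-183-5p and miR-182-5p are identical at 18 of 22 bases (81.8%), while miR-96-5p matches miR-183-5p at 13 of 22 and miR-182-5p at 12 of 23. The seeds of miR-96 and miR-182 are the same over bases 2 to 7. Predicted folding energies were -26.2 kcal/mol for Mir183, -47.9 for the longer Mir96 hairpin and -29.9 for Mir182, with 19 of 22, 19 of 23 and 18 of 25 bases of the 5p arm paired. No member read matched another hairpin, and none of at least 20 nt matched another annotated transcript, so that the 3 related products were told apart. The hairpin of miR-1271, annotated as Gm24195, had 0 reads in each library.

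The short, long and wide libraries held 764539, 1484509 and 943811 reads. Of the usable reads 315887, 344801 and 200681 matched an annotated transcript over their first 20 nt, and 248069, 25392 and 37031 of these matched a microRNA hairpin in sense. Levels are given per 1000000 microRNA reads, since microRNA made up 78.5%, 7.36% and 18.5% of matched reads, and beside them as RPM, reads per 1000000 matched reads. Where a hairpin had no read, 3 reads (9.50, 8.70 and 14.9 RPM) are taken as the upper limit. Small RNAs of introns and of the bases between the hairpins were not analysed here. As a check of the cell type, 7 mRNAs of the oocyte (Zp1, Zp2, Zp3, Gdf9, Bmp15, Oosp1 and Nlrp5) gave 31, 38 and 64 sense reads. In the wide library 63 of the 64 were of Nlrp5 and 1 of Gdf9, and the other 5 were at 0, so that fragments of mRNA say little of the cell type there.

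All 3 hairpins were at their highest in the wide library. Mir182, whose product is the longest of the 3, had 264 reads there, 16 in the short library and 4 in the long library. Its levels were thus 7129 (6295 to 8043), 64.5 (36.9 to 105) and 158 (42.9 to 403) reads per 1000000 microRNA reads. Mir182 was the most abundant member in the wide library and had the fewest reads of the 3 in the short library.

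Mir183, the member at the 5′ end of the cluster, had 152 reads in the wide library, 37 in the short library and 2 in the long library. Its levels were 4105 (3478 to 4812), 149 (105 to 206) and 78.8 (9.54 to 285) per 1000000 microRNA reads. Mir96 had 69, 18 and 0 reads in the same order, or 1863 (1450 to 2358), 72.6 (43.0 to 115) and 0 per 1000000 microRNA reads (up to 118 for a count of 0). The intervals of the short and long libraries overlapped for Mir183 and for Mir182, and those of the wide library lay above both for each member. In RPM, Mir182 had 1316, 50.7 and 11.6 in the wide, short and long libraries, Mir183 757, 117 and 5.80, and Mir96 344, 57.0 and 0.

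**Figure D1:**
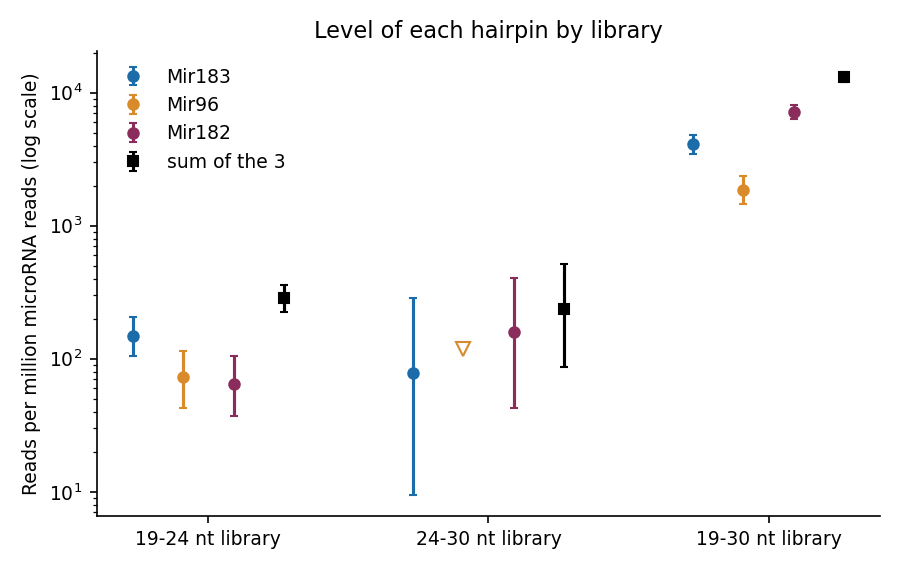
Reads per 1000000 microRNA reads (log axis) of Mir183, Mir96, Mir182 and their sum in each library, with exact Poisson 95% intervals of the count. The open triangle is the level of 3 reads, 118, as the upper limit of Mir96, which had 0 reads in the long (24-30 nt) library. The sum stands at 13097 in the wide (19-30 nt) library and at 286 and 236 in the short and long libraries.

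The first comparison was between the short and wide libraries. Both windows include 22 nt, the most frequent length of microRNA reads in the wide library (40.8% of sized reads). Together the 3 hairpins had 71 reads in the short library and 485 in the wide library, 0.0286% and 1.31% of microRNA reads. As a share of microRNA reads the cluster was 45.8-fold lower in the short library (35.6 to 59.6). Mir182 was 111-fold lower (66.8 to 196), Mir183 27.5-fold lower (19.1 to 40.6) and Mir96 25.7-fold lower (15.1 to 45.9). In RPM the direction was the same and the folds were smaller, at 10.8 (8.37 to 13.996) for the cluster, 25.97 for Mir182, 6.47 for Mir183 and 6.03 for Mir96.

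Of the 196 hairpins with at least 100 reads over the 3 libraries, 10.2% were at least 10-fold lower in the short than in the wide library as a share of microRNA reads, and 22.4% at least 2-fold lower. Mir182 and Mir183 were among these 196 and both were more than 10-fold lower, as was Mir96, which had 87 reads in all and so missed the minimum. Mir182 had the lowest ratio of the 196, with a log2 ratio of -6.75 (0.5 reads added to each count) against a median of 0.78. Mir183 stood at -4.77, with the thirteenth-lowest ratio, and Mir96 at -4.65. At a minimum of 20 reads, Mir182 had rank 3 and Mir183 rank 26 from the lowest of 368 hairpins, and the median was -0.49. Ranks and median thus depend on the minimum, which Mir182 and Mir183 passed through their reads in the wide library. The 368 are not independent, since annotated entries that share the same reads count separately. Gm22903 and Gm23049, for example, each had 11.8, 13.6 and 29.9 reads in the short, long and wide libraries. How far such entries move the ranks and the median was not tested. In RPM 11.2% of the 196 were at least 2-fold lower, again with Mir182 and Mir183 among them.

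**Figure D2:**
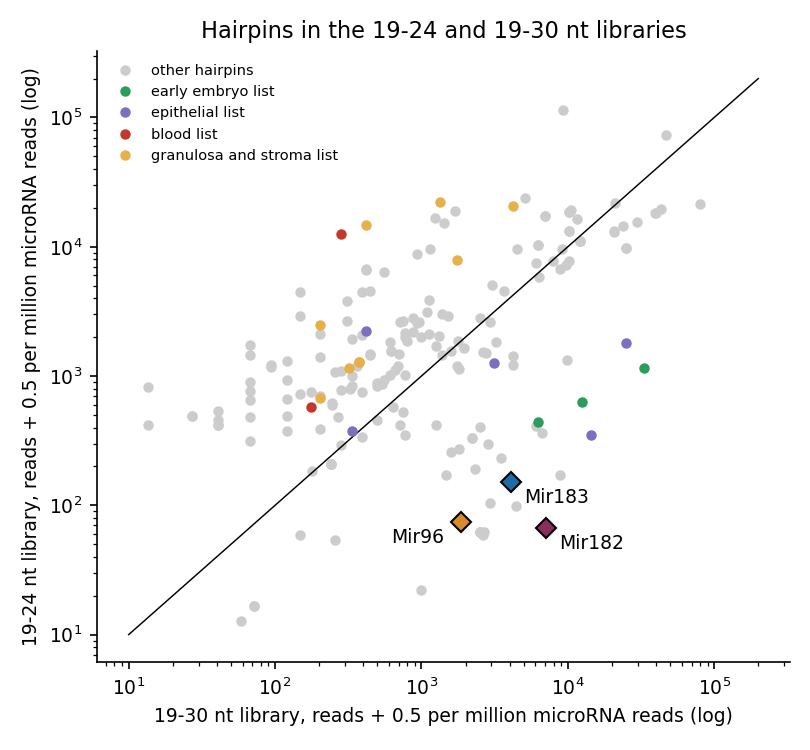
Level of each hairpin with at least 100 reads, and of Mir96, in the wide (19-30 nt) library (x axis) and the short (19-24 nt) library (y axis), as reads per 1000000 microRNA reads after 0.5 reads were added, on log axes. The line marks equal levels. The 3 members (diamonds) lie below it together with the early embryo list, and the blood and granulosa and stroma lists lie above it.

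The contrast was also present among reads of equal length. Among reads sized at 19 to 22 nt in both libraries, Mir182 had 6 and 75 reads, 93.6-fold lower in the short library (41.0 to 263), and Mir183 had 20 and 96, 35.9-fold lower (22.03 to 61.4). Mir96 had 1 and 7 reads (ratio 0.0191, 0.000423 to 0.149), and its inserts were mostly longer than 22 nt.

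The windows of the short and long libraries meet at 24 nt, and the libraries were prepared apart from each other. Their comparison thus cannot by itself show where each product ran. The cluster had 225 RPM (176 to 284) in the short library and 17.4 (6.39 to 37.9) in the long library, 12.9-fold higher in the first (5.65 to 36.4). Mir183 was 20.2-fold higher (5.21 to 173, on 2 reads in the long library) and Mir182 4.37-fold higher (1.41 to 17.9, on 4 reads). Mir96, at 18 and 0 reads, was 6.55-fold higher with the 0 raised to 3 reads in the long library. The lower bound for the counts themselves was 4.80. Mir182 and Mir183 were both more than 2-fold higher, as were 88.8% of the 196 hairpins, so that the members stood with most microRNAs here. The matched reads behind the RPM leave out small RNAs of sequences outside the annotated transcripts, and scaled by usable inserts the ratio of the cluster was 24.7. As a share of microRNA reads the libraries could not be told apart in any member at this depth. The ratio of the short to the long library was then 1.21 (0.530 to 3.41) for the cluster, 1.89 (0.488 to 16.2) for Mir183 and 0.614 for Mir96 with its 0 raised to 3 reads. For Mir182 it was 0.409 (0.132 to 1.68), so that its direction turned with the scaling.

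Against the wide library, the long library also held less of the cluster, 6 reads of 25392 microRNA reads against 485 of 37031. This is 55.4-fold lower as a share (25.3 to 152), with Mir182 45.3-fold lower (17.5 to 167) and Mir183 52.1-fold lower on 2 reads (14.2 to 434). Mir96 was 15.8-fold lower with its 0 raised to 3 reads, and the lower bound for the counts themselves was 12.5. At least 2-fold lower were 44.9% of the 196 hairpins, with Mir182 and Mir183 among them. Mir182 was thus lower in both the short and the long library than in the wide library, and the cause was not tested.

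The shares of the 3 hairpins among the cluster's own reads need no scaling between libraries. In the wide library Mir182 gave 54.4% of the 485 reads (Wilson interval 49.98 to 58.8), Mir183 31.3% (27.4 to 35.6) and Mir96 14.2% (11.4 to 17.6). The 3 intervals did not overlap. In the short library the order was another, with Mir183 at 52.1% of the 71 reads (40.7 to 63.3), Mir96 at 25.4% (16.7 to 36.6) and Mir182 at 22.5% (14.4 to 33.5). There Mir96 and Mir182 were not separable at this depth. The long library had 4 reads of Mir182 and 2 of Mir183, too few for an order.

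The odds that a read of the cluster came from Mir182 were 4.10 times higher in the wide than in the short library (2.24 to 7.89). Mir96 and Mir183 kept nearly the same ratio to each other, 0.454 (0.336 to 0.607) in the wide and 0.486 (0.261 to 0.876) in the short library. Mir182 against Mir183 was 1.74 (1.42 to 2.13) in the wide library and 0.432 (0.225 to 0.797) in the short library. The shift in balance was thus one of Mir182 against both other hairpins. Among reads sized at 19 to 22 nt Mir182 gave 42.1% of 178 reads in the wide library (35.1 to 49.5) and 22.2% of 27 in the short library (10.6 to 40.8), with intervals that overlap.

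**Figure D3:**
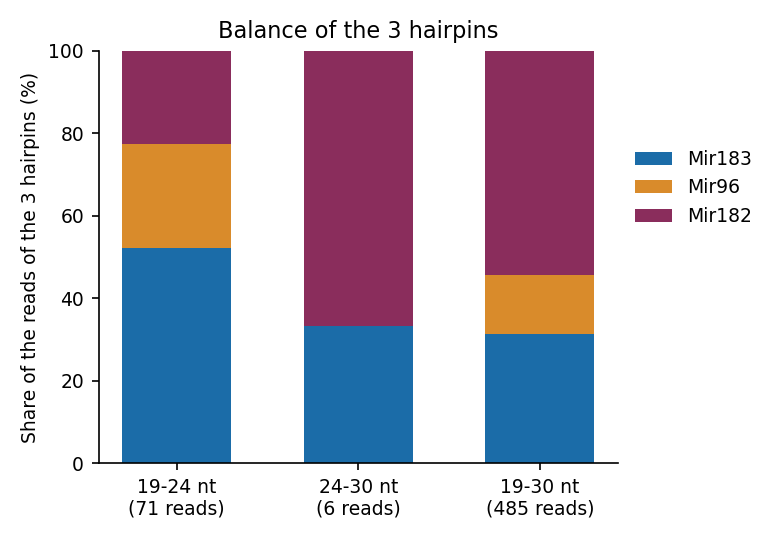
Share of each hairpin among the reads of the 3 hairpins (y axis, percent) in each library, with the number of reads under each bar. Mir182 holds 54.4% in the wide (19-30 nt) library and 22.5% in the short (19-24 nt) library, while the 24-30 nt bar rests on 6 reads.

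Other groups of hairpins on 1 strand, at most 10 kb from each other, also differed in balance. There were 13 other groups of at least 3 hairpins with at least 50 reads in both libraries. Summed over hairpins that gained share, the composition of the miR-183 cluster differed by 31.9 percentage points between the short and wide libraries, the fifth-largest difference of the 14 groups, against a median of 18.6. The largest was in the group of Mir25, Mir93 and Mir106b, where Mir93 gave 24.2% of reads in the short and 85.4% in the wide library. The leading hairpin was the same in both libraries in 8 of the 14 groups. The groups are not independent, since reads that match hairpins of several groups were shared equally among them. Mir24-1 and Mir24-2, of different groups, each had 4294.5 reads in the short and 260 in the wide library. Differences of groups with few reads, such as the 71 here, are raised by counting error.

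Nearly all reads came from the 5p arms. In the wide library 98.6% of the cluster's reads were 5p (97.1 to 99.3). Mir182 had 264 of 264 and Mir96 69 of 69 reads on the 5p arm, and a count of 0 allows up to 1.14% and 4.35% of 3p reads. Mir183 alone had 3p reads, 7 of 152 (4.61%) in the wide library and 3 of 37 (8.11%) in the short library. Of these 10 reads, 9 started at base 46 of the hairpin, 1 base inside the RefSeq start of miR-183-3p.

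Where the 5′ end is cut sets the seed, so the starts were counted. All Mir182 reads in the 3 libraries started at base 7 of the hairpin, and all Mir96 reads in the short and wide libraries at base 24, which are the RefSeq starts. Mir183 had a pair of starts on its 5p arm, base 6 (the RefSeq start) and base 7. These are shown because they expose different seeds, again in capitals:
start at base 6: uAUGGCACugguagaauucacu
start at base 7: aUGGCACUgguagaauucacug
The sequences are taken from the hairpin and cut at 22 nt. Base 7 gave 19 of 145 reads of the 5p arm in the wide library (13.1%, 8.55 to 19.6) and 15 of 34 in the short library (44.1%, 28.9 to 60.5), and base 5 gave 1 read in the wide library. The odds of base 7 against base 6 were 5.13 times higher in the short library (2.06 to 12.9). Both reads of Mir183 in the long library started at base 6.

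A second start of this kind was seen in few of the mature arms compared. Only reads that matched a single hairpin were taken, so that products shared by several hairpins are left out. There were 62 mature arms with at least 30 such reads in both the short and the wide library. Their median share of reads 1 base inside the RefSeq start was 0.168% in the short and 0% in the wide library. Among them miR-183-5p had the fourth-highest share in the short and the sixth-highest in the wide library. Only 6 of the 62 arms had over 20% of reads there in the short library. The arms above it in the short library were miR-30a-3p (78.3%), miR-101b-3p (71.6%) and miR-140-3p (61.4%), named after their values were seen. The share of miR-183-5p was 31.01 percentage points higher in the short than in the wide library. For miR-30a-3p it was 5.0 and for miR-101b-3p 10.8 points higher, and for miR-140-3p the difference was -18.6 points, with the higher share in the wide library. The other arms over 20%, miR-1983 and miR-126a-3p, had 27.0% and 26.5% in the short and 11.6% and 23.2% in the wide library.

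**Figure D4:**
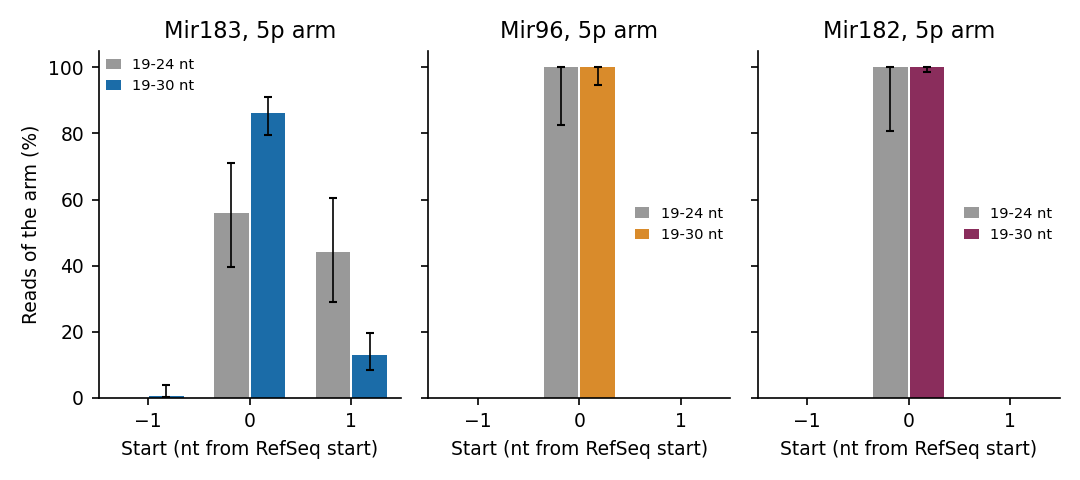
Share of the reads of each 5p arm (y axis, percent) by start, in nt from the RefSeq start (x axis), in the short (19-24 nt) library (grey) and the wide (19-30 nt) library (colour), with Wilson 95% intervals. Mir96 and Mir182 have a single start, and Mir183 has 44.1% and 13.1% of reads at 1 base inside.

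The wide library, with 36 nt reads, gave the lengths of the inserts. Mir183 inserts averaged 22.01 nt (SD 0.815 over 111 sized reads), and 73.0% were 22 nt long (64.0 to 80.4). Mir96 inserts averaged 22.8 nt (SD 0.638, 52 reads), and 80.8% were 23 nt long (68.1 to 89.2). Both had their most frequent length at that of the RefSeq product.

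Mir182 inserts averaged 23.1 nt (SD 1.65, 237 reads) and had no single length. They were 25 nt long in 28.7% (23.3 to 34.8), 23 nt in 28.3% (22.9 to 34.3), 21 nt in 14.8% (10.8 to 19.8), 22 nt in 10.5% (7.25 to 15.1), 24 nt in 10.1% (6.90 to 14.6) and 20 nt in 5.49% (3.23 to 9.16). The shares at 23 and 25 nt lay above that at 24 nt, without overlap of the intervals. Inserts of 24 nt or longer made up 40.1% for Mir182 (34.1 to 46.4), 6.31% for Mir183 (3.09 to 12.4) and 5.77% for Mir96 (1.98 to 15.6), against 10.8% of all microRNA reads (10.4 to 11.1). By mean length Mir182 ranked 6, Mir96 15 and Mir183 30 among 49 hairpins with at least 50 sized reads.

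The most frequent forms of Mir182 shared their start and differed at the 3′ end. They are shown to make the staggered ends visible, with the seed in capitals:
25 nt: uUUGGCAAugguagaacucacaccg
24 nt: uUUGGCAAugguagaacucacacc
23 nt: uUUGGCAAugguagaacucacac
22 nt: uUUGGCAAugguagaacucaca
21 nt: uUUGGCAAugguagaacucac
20 nt: uUUGGCAAugguagaacuca
In the same order they had 54, 17, 47, 21, 33 and 13 reads. The full RefSeq product of 25 nt was thus 22.8% of the sized reads of Mir182, whereas the full products made up 64.0% for Mir183 (71 of 111) and 76.9% for Mir96 (40 of 52).

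**Figure D5:**
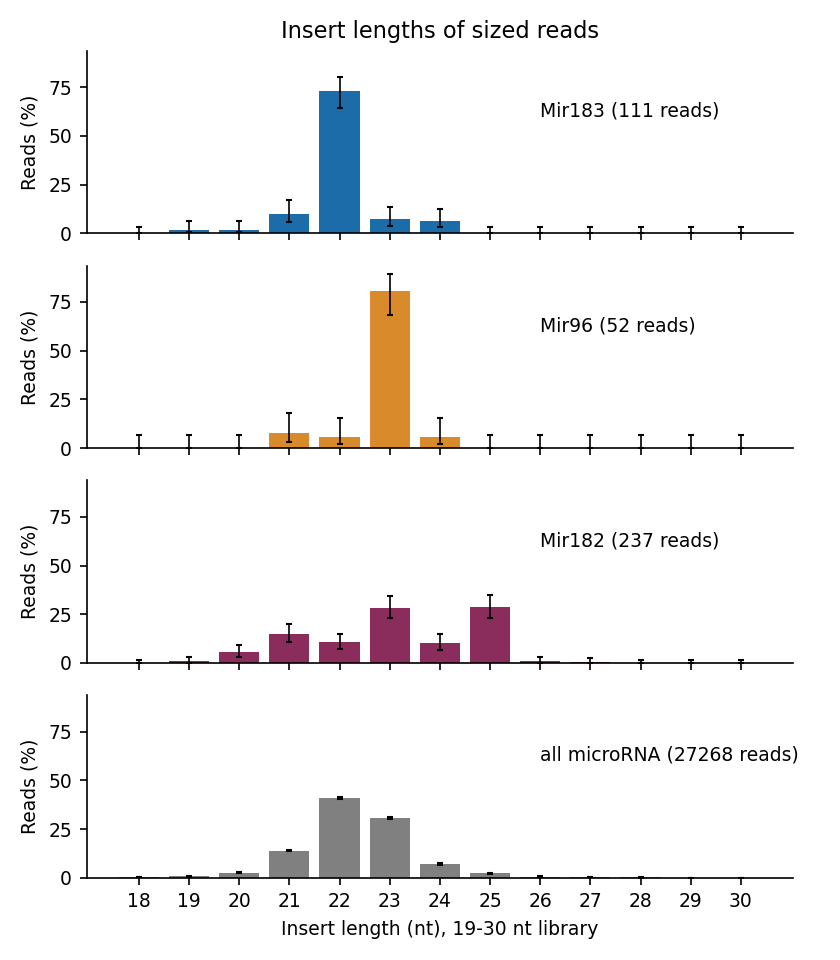
Share of sized reads (y axis, percent, Wilson 95% intervals) at each insert length (x axis, nt) in the wide (19-30 nt) library for Mir183, Mir96, Mir182 and all microRNA reads. Mir183 peaks at 22 nt and Mir96 at 23 nt, while Mir182 is spread from 20 to 25 nt.

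In the same library 83.2% of the 400 sized reads matched the hairpin to their last base (79.3 to 86.6), 90.4% for Mir96, 89.2% for Mir183 and 78.9% for Mir182. The last base differed in 9.0% (6.57 to 12.2), at similar shares in the 3 members (9.01% for Mir183, 7.69% for Mir96 and 9.28% for Mir182). A form of Mir183 with 2 further bases, uAUGGCACugguagaauucacuga, had 6 reads, and its last base is not that of the hairpin. A further 28 of Mir182's 237 sized reads had a differing base further inside. At cycle 22 of the run 30 of 187 Mir182 reads (16.0%) differed from the hairpin, and errors of the run and changed bases in the RNA cannot be told apart.

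In 85 of the 485 reads of the wide library no linker was found, 41 of Mir183, 17 of Mir96 and 27 of Mir182. None of them followed the hairpin over bases 26 to 36 in at least 9 of 11 bases. With up to 35% linker mismatches in place of 20%, 142 reads of Mir183, 66 of Mir96 and 259 of Mir182 were sized. The 85 reads were kept in all counts above and left out of the lengths. In the 26 nt reads, 17 of 37 Mir183, 17 of 18 Mir96 and 10 of 16 Mir182 reads of the short library had no linker found. They may hold inserts of 23 nt or longer or linkers with misread bases, and were not sized. There the base at cycle 21 differed from the hairpin in 29 of 64 reads of the 5p arms (45.3%), 15 of 18 for Mir96, against 10 of 460 (2.17%) in the wide library, so that 3′ ends were not read from these libraries.

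Other microRNAs with a pattern like that of the cluster were sought among 194 hairpins, by the distance of the log2 ratios of microRNA shares (short and long against wide) over the 3 libraries. The nearest were Mir470 (distance 0.19; 24, 2 and 163 reads in the short, long and wide libraries), Mir155 (0.37; 42, 3 and 326) and Mir200c (0.68; 87, 4 and 533). Gm27399 (1.08) and Mir292 (1.35) followed. Mir470 belongs to a group on the X chromosome known from germ cells, Mir200c to a family known from epithelia and Mir292 to an early embryo cluster. Mir155, which was nearer than Mir200c and Mir292, is in none of these groups.

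MicroRNAs that are found with the cluster in epithelia and sensory tissue were counted from fixed lists. In the epithelial list (7 hairpins) 5 had at least 100 reads, of which 3 were at least 2-fold lower in the short than in the wide library (Mir141, Mir200c and Mir200a) and 1 at least 2-fold higher (Mir205). The median log2 ratio of the 5 was -1.29, against 0.78 over the 196, a value that depends on the minimum of reads. Mir141 had 447 and 919 reads (ratio 0.0726, 0.0647 to 0.0814), Mir200c 87 and 533 (0.0244, 0.0192 to 0.0306) and Mir205 555 and 15 (5.52, 3.32 to 9.94). Of the sensory and neural list, 9 of 11 symbols were annotated. They had 35, 1 and 53 reads in the short, long and wide libraries, mostly of the Mir9 hairpins. As a share of microRNA reads the ratio of the short to the wide library was 0.0986 (0.0624 to 0.154). This list too was thus lower in the short library, though none of its hairpins had 100 reads. The 2 symbols not matched are Mir7a-1 and Mir7a-2, which RefSeq gives as other names of Mir7-1 and Mir7-2. Looked up after the values were seen, Mir7-1 and Mir7-2 had 31 reads each in the wide library and 26.5 and 23.5 in the short library.

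In the early embryo list, microRNAs known from embryonic stem cells, 3 of 3 hairpins with at least 100 reads were at least 2-fold lower in the short library, with Mir294 at 284 and 1233 reads (ratio 0.0344), Mir292 at 155 and 460 (0.0503) and Mir295 at 108 and 232 (0.0695). The cluster's ratio of 0.0219 (0.0168 to 0.0281) lay below that of the whole early embryo list, 0.0451 (0.0412 to 0.0494), and below that of the miR-200 family, 0.0928 (0.0856 to 0.101). Single hairpins of both came near it, with Mir200c at 0.0244 (0.0192 to 0.0306) and Mir294 at 0.0344 (0.0301 to 0.0391). Without Mir182 the cluster's ratio was 0.0372. Most markers of other ovarian cells went the other way, and 44.9% of the 196 hairpins were at least 2-fold higher. In the blood list 2 of 2 and in the granulosa and stroma list 9 of 9 hairpins with at least 100 reads were at least 2-fold higher in the short library. The blood list summed to 13613, 5198 and 486 per 1000000 microRNA reads in the short, long and wide libraries, and the granulosa and stroma list to 72778, 13390 and 9209. Mir212 was at 0 in the wide library and Mir144 at 0 in the long library. The other 13 matched markers of both lists had reads in all 3 libraries. Of the blood list 4 of 5 symbols were annotated, and Mir142a was not matched. Looked up after the values were seen, the hairpin annotated as Mir142 had 64 reads in the short library and 0 in the long and wide libraries. The part of these markers in the lower level of the cluster was not tested. In bulk RNA, fewer cells of a type and less RNA per cell cannot be told apart.

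No read matched the 3 hairpins in antisense. Rncr4 (chr6:30172893-30175126), a lincRNA on the opposite strand next to the cluster that is known from the retina, had 0 reads on either strand in each library.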

How the data were processed

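The deposited files hold single reads with a quality for each base, not counts. Per the labels, the 3 gel windows were prepared apart from each other for an Illumina 1G platform, and the aligner, genome build and filters of the authors are not given in the sources used here. Read counts were made here. The linker was taken as the most frequent read of the 19-30 nt library and trimmed with an overlap of at least 4 (26 nt reads) or 6 (36 nt reads) called bases and up to 20% mismatches. Dropped were inserts under 18 nt, and reads whose first 18 bases held an uncalled base or at least 15 equal bases. In 26 nt reads inserts could be sized up to 22 nt. Reads without a recognised linker were kept in all libraries, a choice made after the data were examined.

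The first 20 nt (the whole insert at 18 or 19 nt) had to match 1 of the 141767 GENCODE M21 transcripts (GRCm38) perfectly, and a read was shared equally among the hairpins it matched. No genome and no tRNA or rRNA sequences beyond the annotated transcripts were searched, which bears on RPM. Counts have exact Poisson, shares Wilson and ratios conditional binomial intervals (95%), and odds ratios exact conditional ones, computed with scipy 1.17.1. Folding used RNAfold 2.7.2. Mature arms and hairpins come from RefSeq, in which 3 of 3 members matched. Trimming and intervals were tested on simulated data. No test between libraries was made, since each group is 1 library. The rule for named hairpins took the members, the 3 with most reads of each fixed list, the 5 nearest in pattern and the groups compared for balance. Named after their values were seen were Mir200a, Mir212, Mir144, Mir142, Mir132, Mir150, Mir7-1, Mir7-2, Gm22903, Gm23049 and the arms compared for their starts. Members and lists were chosen with earlier results of these data known. Alternatives tried were stricter trimming, other match lengths, a mismatch, distinct sequences, other scalings, sized reads alone and leaving out Mir182.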

Additional observations from a re-analysis of the deposited data

How the results depend on the processing

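The lower share of the cluster in the 19-24 than in the 19-30 nt library (ratio 0.0219) kept its direction under every alternative run. It moved to 0.0930 when scaled by matched reads, to 0.161 when scaled by usable inserts, to 0.0372 without Mir182 and to 0.334 over distinct sequences, of which there were 5 and 9. The ratio of the 19-24 to the 24-30 nt library (12.9) stayed above 1 in all 7 alternatives run. It moved to 3.10 over distinct sequences and to 1.21 when scaled by microRNA reads. At 1.21 its bounds (0.530 to 3.41) lay on both sides of 1, so that no direction could be read under that scaling. The ratio of 12.9 stayed within its interval under the other alternatives. It was 30.0 without Mir182 and 24.7 when scaled by usable inserts (added after seeing the data), both within its interval. The share of Mir182 in the 19-30 nt library (54.4%) moved to 42.1% among reads of 19 to 22 nt, to 22.2% over distinct sequences, and to 59.2% with reads without a linker set aside, an alternative added after seeing the data. The share of reads matching to the last base (83.2%) moved to 88.2% with no mismatch allowed in the linker. Arm use, start positions, mean lengths and the rank of the cluster stayed within their intervals or 1 SD under each alternative run for them. Of 43 values under alternatives, 33 stayed within the interval or 1 SD of the value given. With 71, 6 and 485 reads, depth limits the 24-30 nt library most. No paired analysis was possible because each window has 1 library.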
